A study of Mus musculus with 12 samples.

Results

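The B7 ligands and their CD28-family receptors are described here in 12 mouse lung tumors that received radiation, a TGF-beta antibody, both or neither. The set holds 10 genes of the 18193 genes with a probe set on the array: the ligands Cd80, Cd86, Cd274, Pdcd1lg2, Icosl and Cd276, and the receptors Cd28, Ctla4, Pdcd1 and Icos. Members were chosen by gene symbol, and each is represented by its probe set with the highest mean log2 intensity. All probe sets of Cd80 and Cd274 are given. In all, 18 probe sets carried the symbol of a member, and 5 members had more than 1. Genes in the lowest 30 percent of mean intensity, under a log2 value of 5.37, were not tested in the main comparison. Cd80, Cd86, Cd274, Icosl, Cd276 and Icos passed that filter. Pdcd1lg2, Cd28, Ctla4 and Pdcd1 lay under it, and their values come from a fit of all 18193 genes without a filter.

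T cells need a signal from CD28 beside that of the antigen receptor, and CD80 and CD86 on antigen-presenting cells give it. CTLA-4 binds the same pair of ligands more tightly and restrains the T cell, while PD-1 does so when it binds PD-L1 (the product of Cd274) or PD-L2 (the product of Pdcd1lg2). ICOS and its ligand form a further activating pair, and B7-H3 (the product of Cd276) is a B7 relative that many tumors carry.

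LLC cells (Lewis lung carcinoma, a transplantable mouse lung cancer line) were grown under the skin of female C57BL/6 mice aged 6 to 8 weeks, and tumors were taken on day 19 after injection. Each of 4 groups held 3 tumors, each on its own Affymetrix array. Control tumors received 13C4, an isotype control antibody, and 1D11 tumors received 1D11, an antibody that neutralizes TGF-beta. Tumors called radiation received 13C4 with radiation, and tumors called 1D11_radiation received 1D11 with radiation, so that every group carried an antibody. The labels disagree on dose: the treatment field gives 5 fractions of 6 Gy, and the description gives 2 Gy. The description also speaks of cells where the source name speaks of a tumor. The labels do not say whether the 3 tumors of a group came from separate mice, so p-values measure the spread between these samples only. Whole tumors hold several cell types, and a change in the number of cells of a type cannot be told apart from a change in RNA per cell.

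The tumor label was checked against marker genes. Of 6 carcinoma epithelium markers, 4 passed the filter (Krt8, Krt18, Krt19 and Epcam), while Krt7 and Cdh1 did not. All 12 macrophage markers passed. Only 6 of 12 T cell markers and 3 of 6 regulatory T cell markers did, and Foxp3, Il2ra and Ccr8 were under the filter. Skeletal muscle genes were highest in radiation replicate 3, followed by control replicate 1. The mean centred log2 value of 10 such genes was 2.25 and 1.18 there, against -1.62 to 0.68 in the other 10 tumors. A gene is called here when its Benjamini-Hochberg adjusted p from limma, a linear model over all genes tested, is under 0.05. Changes are differences of log2 intensity with their standard error (SE), and n is 3 tumors per group. The number of arrays limits the precision.

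Cd80 and Cd274 are the members that a main comparison called, and the bases before their start sites are shown for that reason. RefSeq promoters of assembly GRCm38.p6 were at hand for 7 of the 10 members, not for Cd86, Cd28 and Icos. Each window holds the 250 bases before the annotated start, written 5' to 3' on the gene's own strand: chr16:38458683-38458932, plus strand, for Cd80, and chr19:29367188-29367437, plus strand, for Cd274. Capitals mark a match to 1 of 5 searched motifs.
Cd80: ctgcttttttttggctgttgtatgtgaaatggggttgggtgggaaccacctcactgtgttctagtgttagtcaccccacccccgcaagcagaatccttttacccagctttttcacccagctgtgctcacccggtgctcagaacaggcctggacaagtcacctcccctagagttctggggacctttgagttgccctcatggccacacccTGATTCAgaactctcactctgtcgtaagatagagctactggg
Cd274: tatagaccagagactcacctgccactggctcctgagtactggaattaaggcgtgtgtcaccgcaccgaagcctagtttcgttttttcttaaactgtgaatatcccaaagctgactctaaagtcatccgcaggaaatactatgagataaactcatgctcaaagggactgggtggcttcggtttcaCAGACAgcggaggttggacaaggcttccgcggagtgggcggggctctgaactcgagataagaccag
The capitals in Cd80 are a match to the AP-1 motif TGANTCA, from base 42 to base 36 before the start. That motif reads alike on both strands, and 6.75% of the 32851 promoters in the table hold it in a window of the same length. The capitals in Cd274 are a match to CAGACA, a SMAD motif, from base 66 to base 61 before the start, and 17.1% of promoters hold it on either strand. Pdcd1 has the same letters from base 14 to base 9. The interferon-stimulated response element (GAAA, 2 free bases, GAAA; 2.98% of promoters), the gamma-activated site TTCNNNGAA (7.02%) and the NF-kappaB motif (GGG, 2 free bases, TT, 1 free base, CC; 4.11%), each searched on both strands, were in none of the 7 member windows. These matches describe letters in a window and say nothing on binding.

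In the annotation of GRCm38.p6, Cd274 and Pdcd1lg2 are neighbours on chromosome 19, and Cd28, Ctla4 and Icos follow each other on chromosome 1. Cd80 and Cd86 both lie on chromosome 16 without adjoining each other. The genes next to the Cd274 and Pdcd1lg2 pair were not called: after radiation the log2 change was -0.04 ± 0.07 for Plgrkt and -0.09 ± 0.09 for Ric1 (limma adjusted p = 0.821 and 0.641). Timmdc1, which adjoins Cd80, had a log2 change of 0.04 ± 0.12 (adjusted p = 0.885).

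The first comparison asks what radiation does under the control antibody. Cd80, for a ligand shared by activating CD28 and restraining CTLA-4, rose. It was the 1 member called of 6 tested, where 2.39% of all 12735 genes tested were called. Its log2 intensity was 5.41, 5.29 and 5.39 in control tumors and 7.02, 6.83 and 6.68 in radiation tumors. All radiation tumors lay above all control tumors. The log2 change was 1.48 ± 0.15 (fold 2.79, limma adjusted p = 0.0071). Over all 10 members, 8 were higher after radiation (46.1% of all 18193 genes were), 7 had an unadjusted p under 0.05 (15.4% of all genes did), and the median log2 change was 0.34 against -0.01 for all genes. Groups did not overlap in 3 members that were higher (8.55% of all genes) and in 1 that was lower (9.71%).

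The 4 Cd80 probe sets gave unequal values. Probe set 1432826_a_at, which represents the gene, and 1451950_a_at were both called in the fit of 24461 probe sets, of which 1.19% were called. For 1451950_a_at, log2 intensity was 5.29, 5.61 and 5.56 in control tumors and 6.90, 6.47 and 6.58 in radiation tumors. Again no radiation tumor was as low as a control tumor, and the log2 change was 1.16 ± 0.12 (adjusted p = 0.0119). Probe set 1427717_at read 5.91, 5.82 and 5.87 in control tumors and 6.80, 6.35 and 6.15 in radiation tumors. These groups did not overlap either, yet the log2 change of 0.57 ± 0.14 was not called (adjusted p = 0.0737). It was 0.71 and called without radiation replicate 3 (adjusted p = 0.0285). Probe set 1454372_at, the dimmest and under the filter, read 4.75, 4.81 and 4.66 in control tumors and 4.42, 4.82 and 4.60 in radiation tumors. Its groups overlapped, with a log2 change of -0.13 ± 0.10 (adjusted p = 0.632). With the mean of all 4 probe sets in place of the brightest, the Cd80 change was 0.77 ± 0.09 and still called (adjusted p = 0.0088). The plot of the 4 probe sets shows where they differ.

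**Figure D1:**
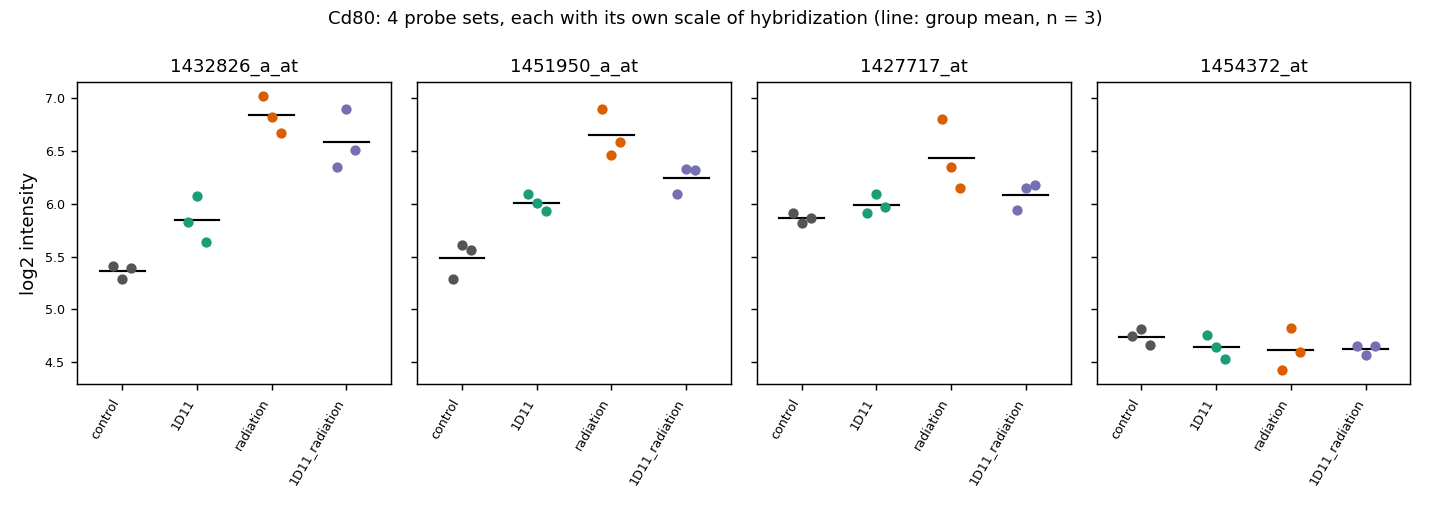
Log2 intensity (vertical axis) of the 4 Cd80 probe sets in the 4 groups (horizontal axis); points are single tumors and lines are means of 3 tumors. In 3 probe sets all radiation tumors lie above all control tumors, by 1.48, 1.16 and 0.57 on the log2 scale, and in 1454372_at they overlap.

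Cd86, the other ligand of CD28 and CTLA-4, was not called. Its log2 intensity was 6.85, 7.11 and 6.86 in control tumors and 7.62, 7.44 and 6.91 in radiation tumors. Radiation replicate 3 fell within the control range, and the log2 change was 0.38 ± 0.17 (limma adjusted p = 0.249). The second Cd86 probe set, 1449858_at, gave 0.53 ± 0.22, also not called (adjusted p = 0.265).

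The difference between both genes was tested within each tumor. Cd80 minus Cd86, a difference of log2 values of different probes whose level has no meaning of its own, changed with radiation by 1.10 over both antibodies. It ran from -1.83 to -1.10 in the 6 tumors without radiation and from -0.61 to -0.23 in the 6 with it. The ranges did not overlap. The exact permutation test over 400 relabelings gave p = 0.005, the smallest it can give, and 0.04 after adjustment over 8 such tests. The call was lost with the mean of all probe sets of each gene, where the difference was 0.43 (exact permutation, adjusted p = 0.08). With the replicate number as a block the adjusted p was 0.125 (1.10, exact permutation). Swaps within same-numbered tumors allow far fewer relabelings. Under that block no difference can pass adjustment unless most of the 8 tests reach the smallest p possible. The call lost with the block therefore decides nothing.

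Cd274 codes for PD-L1, the main ligand of PD-1. Its log2 intensity was 6.66, 7.28 and 6.74 in control tumors and 7.66, 7.53 and 6.97 in radiation tumors. Control replicate 2 was above radiation replicate 3, so the groups overlapped. The log2 change was 0.49 ± 0.18 and was not called (limma adjusted p = 0.181). Pdcd1lg2, for the second PD-1 ligand PD-L2, read 4.52, 4.79 and 4.53 in control tumors and 4.91, 4.79 and 4.94 in radiation tumors. The groups did not overlap, by a margin of under 0.01 between control replicate 2 and radiation replicate 2. Its log2 change was 0.27 ± 0.10 (adjusted p = 0.226), from values under the filter.

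Icosl, the ligand of ICOS, and Cd276 were the members that were lower after radiation. Cd276, the B7-H3 gene, read 8.96, 9.15 and 8.95 in control tumors and 8.92, 8.84 and 8.79 in radiation tumors. All radiation tumors were lower, but the log2 change was small, -0.17 ± 0.09 (limma adjusted p = 0.322). For Icosl the values were 6.44, 6.13 and 6.15 in control tumors and 6.12, 6.12 and 6.34 in radiation tumors. These overlapped, and the log2 change was -0.05 ± 0.10 (adjusted p = 0.850), with a 95% interval from -0.26 to 0.17.

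Among the receptors, Icos, an activating receptor of T cells, read 5.96, 5.89 and 5.85 in control tumors and 6.85, 6.82 and 5.85 in radiation tumors. Ctla4, the restraining receptor, read 4.98, 5.02 and 5.19 in control tumors and 5.83, 5.97 and 4.80 in radiation tumors. In both genes radiation replicates 1 and 2 were above every control tumor and radiation replicate 3 was below every control tumor. The log2 change was 0.61 ± 0.22 for Icos and 0.47 ± 0.23 for Ctla4, and neither was called (limma adjusted p = 0.167 and 0.361). Without radiation replicate 3 the changes were 0.94 ± 0.10 for Icos and 0.84 ± 0.10 for Ctla4 (adjusted p = 0.0038 and 0.0054). With any other tumor left out neither gene was called, and the adjusted p reached up to 0.419 for Icos and 0.674 for Ctla4.

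Radiation replicate 3 has the highest skeletal muscle score of the 12 tumors, and its part in these values was not tested. Its regulatory T cell score was -0.07, against 0.32 and 0.35 in the other radiation tumors, while its T cell score was 0.13 against 0.14 and 0.17. Without radiation replicate 3, 4 of the 6 members tested were called, Cd80, Cd86, Cd274 and Icos, with log2 changes of 0.59 ± 0.13 for Cd86 and 0.70 ± 0.16 for Cd274 (adjusted p = 0.0417 and 0.0441). In that fit 403 of all genes tested were called, against 304 with all 12 tumors. Without both tumors with the highest skeletal muscle scores, an alternative chosen after the data were seen, Cd80 and Icos were called, and 569 genes in all. The choice of tumors therefore moved the count of members called from 1 to 4.

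The other probe sets of Icos were also low in radiation replicate 3. Probe set 1436598_at read 5.28, 5.40 and 5.40 in control tumors and 6.77, 6.80 and 5.49 in radiation tumors. These did not overlap, and the log2 change of 0.99 ± 0.30 was not called (limma adjusted p = 0.130). It was 1.42 and called without radiation replicate 3 (adjusted p = 0.0104). Probe set 1421931_at, under the filter, gave 0.47 ± 0.18 (adjusted p = 0.288).

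The last pair of receptors lay close to the lowest values on the array. Cd28, the activating receptor of CD80 and CD86, read 3.92, 4.34 and 4.09 in control tumors and 4.31, 4.38 and 4.41 in radiation tumors. Pdcd1, which codes for PD-1, read 4.09, 4.04 and 3.72 in control tumors and 4.30, 4.18 and 4.27 in radiation tumors. The Pdcd1 groups did not overlap and the Cd28 groups did, through control replicate 2. The log2 change was 0.25 ± 0.11 for Cd28 and 0.30 ± 0.11 for Pdcd1, neither called (limma adjusted p = 0.276 and 0.205). A second Cd28 probe set, 1417597_at, had nearly the same mean level over all tumors (4.19 against 4.20). It read 4.03, 4.11 and 3.77 in control tumors and 4.52, 4.44 and 4.20 in radiation tumors, without overlap. The Cd28 overlap thus depends on the probe set.

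**Figure D2:**
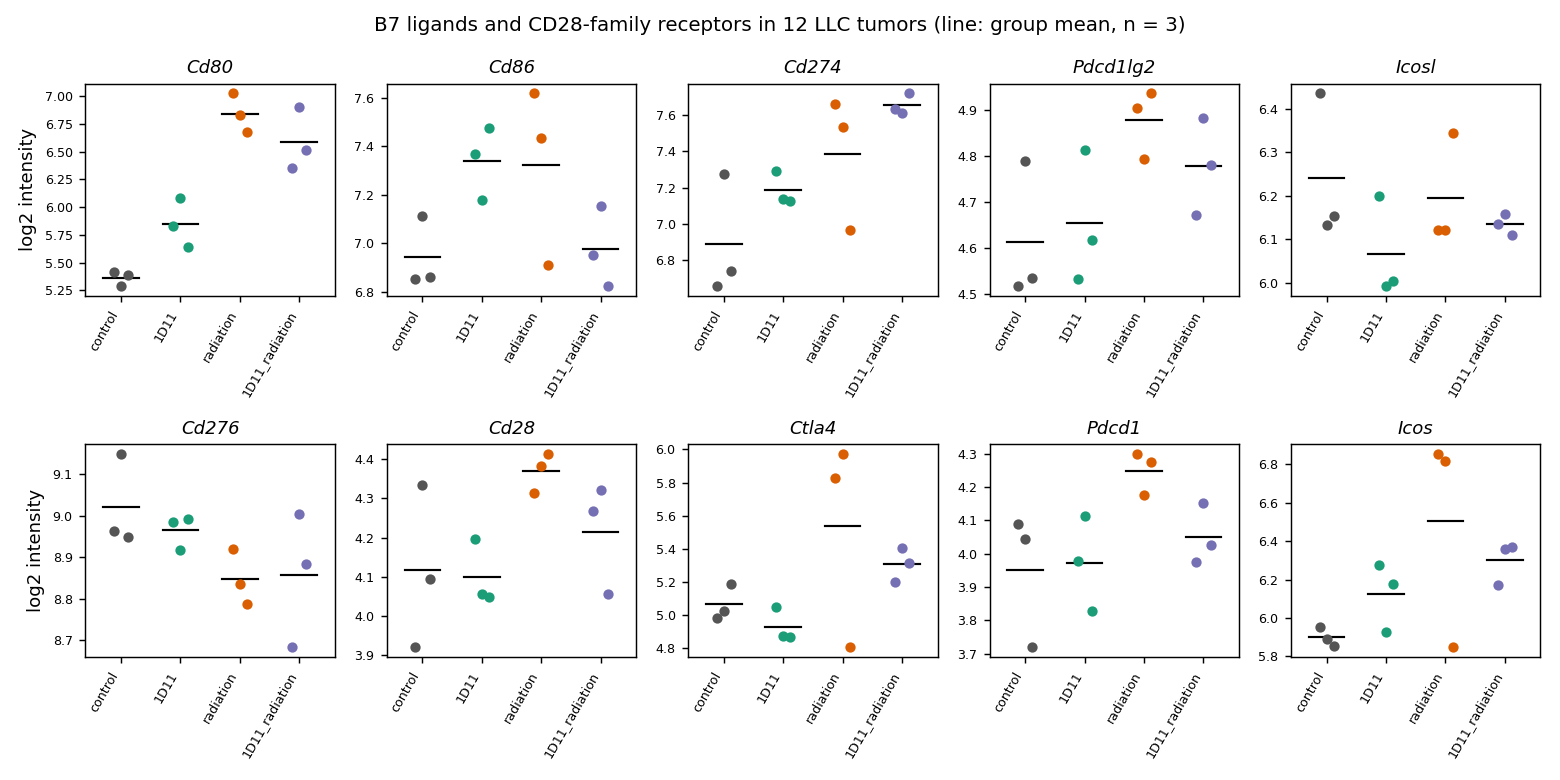
Log2 intensity (vertical axis, a separate range in each panel) of the 10 genes in the 4 groups (horizontal axis); points are single tumors in the order of replicates 1, 2 and 3 and lines are means of 3 tumors. Cd80 separates the 6 irradiated tumors from the 6 others. Radiation replicate 3 is the lowest radiation tumor in Cd80, Cd86, Cd274, Cd276, Ctla4 and Icos, and the highest in Pdcd1lg2, Icosl and Cd28.

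The second comparison asks what 1D11 does without radiation. None of the 6 members tested was called, where 0.0157% of all genes tested were. By limma, 2 of the 10 members had an unadjusted p under 0.05 (13.6% of all 18193 genes did), and these were Cd80 and Cd86. Cd80 read 5.83, 6.08 and 5.64 in 1D11 tumors, all above the control tumors, with a log2 change of 0.49 ± 0.15 (adjusted p = 0.211). Cd86 read 7.37, 7.18 and 7.47, also all above the control tumors, with a log2 change of 0.40 ± 0.17 (adjusted p = 0.322). These were the 2 members that were higher without overlap (9.26% of all genes). The other Cd80 probe sets were unequal. The log2 change was 0.52 ± 0.12 in 1451950_a_at (limma adjusted p = 0.175), without overlap, while 1427717_at gave 0.13 ± 0.14 and 1454372_at -0.10 ± 0.10, both with overlap (adjusted p = 0.738 and 0.722). With the mean of the 4 probe sets the Cd80 change was 0.26 ± 0.09 (adjusted p = 0.250).

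Cd274 read 7.29, 7.14 and 7.13 in 1D11 tumors. These lie in the range of the control tumors, which span 6.66 to 7.28, except replicate 1, and the log2 change was 0.29 ± 0.18 (limma adjusted p = 0.495). By their brightest probe sets, the 7 members not yet given had log2 changes between -0.18 (Icosl) and 0.23 (Icos), all with overlapping groups. Icos read 6.27, 5.92 and 6.18, Icosl 6.20, 5.99 and 6.00, and Cd276 8.98, 8.92 and 8.99. A second Icosl probe set, 1426087_at, under the filter, was lower without overlap. It read 5.03, 5.03 and 4.74 in control tumors and 4.53, 4.61 and 4.62 in 1D11 tumors. In 1D11_radiation tumors it read 4.52, 4.73 and 4.54, also below every control tumor. Under the filter, Pdcd1lg2 read 4.53, 4.81 and 4.62, and Ctla4 5.05, 4.87 and 4.87. Cd28 read 4.20, 4.06 and 4.05, and Pdcd1 3.98, 4.11 and 3.83. The keratinocyte score was 1.04 in 1D11 replicate 1 and 2.29 in 1D11 replicate 3, against -0.45 to -0.18 in the other 10 tumors, and its part in the 1D11 values was not tested.

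The third comparison asks what radiation does under 1D11. None of the 6 members tested was called, where 0.0785% of all genes tested were. By limma, 3 of the 10 members had an unadjusted p under 0.05 (12.4% of all genes): Cd80, Cd86 and Cd274. Cd80 read 6.35, 6.90 and 6.51 in 1D11_radiation tumors. All lay above the 1D11 tumors, and the log2 change was 0.74 ± 0.15 (fold 1.67, adjusted p = 0.0668). The other Cd80 probe sets gave smaller values, and the groups overlapped in each: 0.24 ± 0.12 in 1451950_a_at, 0.10 ± 0.14 in 1427717_at and -0.02 ± 0.10 in 1454372_at (limma adjusted p = 0.431, 0.832 and 0.971). With the mean of the 4 probe sets the change was 0.26 ± 0.09 (adjusted p = 0.184). Without control replicate 1, which enters this comparison through the shared estimate of spread, the brightest probe set had an adjusted p of 0.0442, in a fit that called 227 genes in all against 10 with all 12 tumors.

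The value of Cd86 was on the other side of 0. It read 6.95, 7.15 and 6.82 in 1D11_radiation tumors, all below the 1D11 tumors, with a log2 change of -0.36 ± 0.17 (limma adjusted p = 0.321). The second Cd86 probe set, 1449858_at, gave -0.215 ± 0.22, with overlap (limma adjusted p = 0.7395). Cd274 read 7.63, 7.61 and 7.72, the tightest group of the 4 for this gene (SD 0.06, n = 3). All of them lay above the 1D11 tumors, with a log2 change of 0.47 ± 0.18 (adjusted p = 0.250). A fit of these 2 groups alone gave the same change with an SE of 0.07 and called it (adjusted p = 0.0434), among 119 genes called in all.

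Ctla4 read 5.20, 5.41 and 5.31 under both treatments, above every 1D11 tumor, with a log2 change of 0.38 ± 0.23 (limma adjusted p = 0.551). With Cd80 and Cd274 it makes 3 members that were higher without overlap (8.29% of all genes), against 1 lower, Cd86 (13%). Icos read 6.17, 6.36 and 6.37, which overlapped the 1D11 tumors, with a log2 change of 0.18 ± 0.22. The values of Icosl were 6.13, 6.16 and 6.11, those of Cd276 8.68, 9.00 and 8.88, and those of Pdcd1lg2 4.67, 4.88 and 4.78. Cd28 read 4.27, 4.32 and 4.06, and Pdcd1 read 3.97, 4.15 and 4.03. The log2 changes of these 5 genes lay between -0.11 and 0.12, with overlapping groups.

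Whether radiation acted differently under the 2 antibodies was tested as an interaction, the effect of radiation under 1D11 minus its effect under 13C4. None of the 6 members tested was called, and 0 of all 12735 genes tested were (0%). By limma, 2 of the 10 members, Cd80 and Cd86, had an unadjusted p under 0.05, as did 1289 of all 18193 genes (7.09%). By limma, Cd80 had an interaction of -0.74 ± 0.21 (adjusted p = 0.400), so its value was smaller under 1D11. Cd86 had an interaction of -0.74 ± 0.23 (limma adjusted p = 0.449), from 0.38 under 13C4 to -0.36 under 1D11. Of the other Cd80 probe sets, 1451950_a_at gave -0.92 ± 0.18, 1427717_at -0.47 ± 0.20 and 1454372_at 0.11 ± 0.14 (limma adjusted p = 0.363, 0.782 and 0.943). The Cd86 probe set 1449858_at gave -0.75 ± 0.31 (adjusted p = 0.782). Cd274 had an interaction of -0.03 ± 0.26, with a 95% interval from -0.60 to 0.54. With radiation replicate 3 left out it was -0.23 ± 0.21 (limma adjusted p = 0.837), from 0.70 under 13C4 and 0.47 under 1D11, so the near equality of both estimates rests on that tumor. The smallest adjusted p for Cd86 in any alternative came with array weights, which called it at -0.92 ± 0.18 (adjusted p = 0.0448, and up to 0.640 in the other alternatives that left out no tumor). With array weights 122 genes in all were called in the interaction. The plot of radiation effects sets both estimates side by side for each gene.

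**Figure D3:**
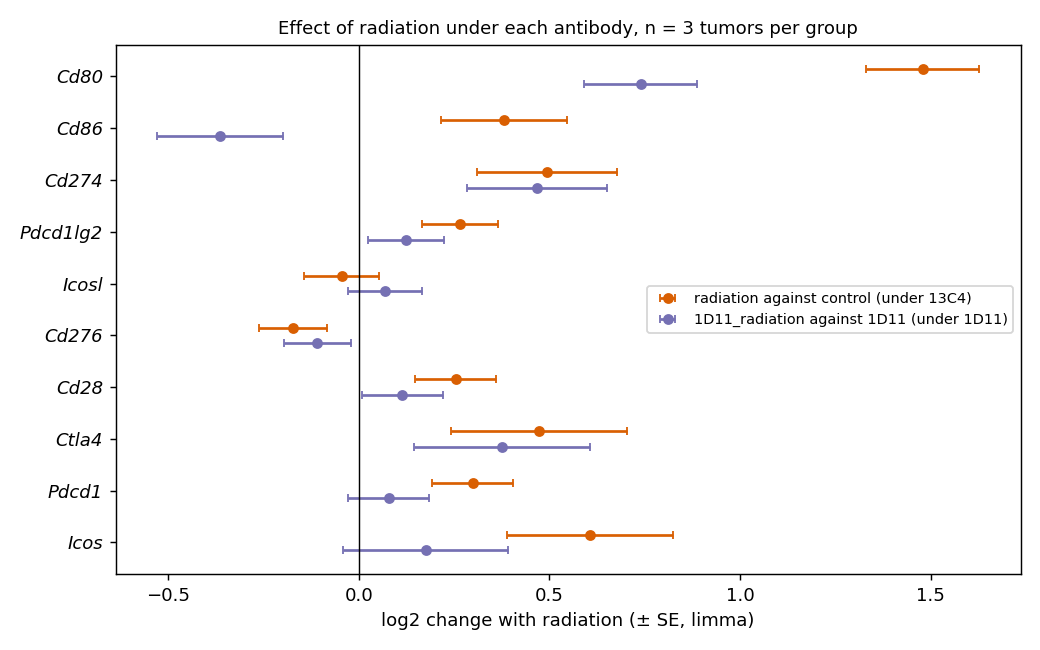
Log2 change with radiation (horizontal axis, point with limma SE as bar) for each of the 10 genes (vertical axis), under 13C4 in orange and under 1D11 in purple, n = 3 tumors per group. Cd80 is to the right under both antibodies (1.48 and 0.74), Cd86 changes side (0.38 and -0.36), and the Cd274 points nearly coincide with all 12 tumors (0.49 and 0.47, against 0.70 and 0.47 without radiation replicate 3).

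Over both antibodies, 6 irradiated tumors were set against 6 others, and 2 of the 6 members tested were called, Cd80 and Cd274, where 7.26% of all genes tested were. Cd80 rose by 1.11 ± 0.10 (fold 2.16, limma adjusted p = 0.0012). All 6 irradiated tumors, at 6.35 to 7.02, were above the other 6, at 5.29 to 6.08. With the mean of its 4 probe sets the Cd80 change was 0.52 (adjusted p = 0.0027), made up of 0.77 under 13C4 and 0.26 under 1D11. Singly, 1451950_a_at gave 0.70 ± 0.09, 1427717_at 0.33 ± 0.10 and 1454372_at -0.07 ± 0.07, all with overlap (limma adjusted p = 0.0041, 0.0747 and 0.673). By its brightest probe set, Cd80 was the 1 member of 10 whose groups did not overlap in this comparison (1.42% of all genes were higher without overlap). Cd274 rose by 0.48 ± 0.13 (fold 1.39, adjusted p = 0.0483), with values of 6.97 to 7.72 against 6.66 to 7.29. Only radiation replicate 3, at 6.97, was within the range of the tumors without radiation. The Cd274 call ended with any of 10 tumors left out (adjusted p between 0.0702 and 0.113). It also ended without a filter (0.0591), after quantile normalization (0.0634) and with the replicate number as a block (0.0610).

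The other members were not called. Ctla4 had a log2 change of 0.42 ± 0.16 (limma adjusted p = 0.178) and Icos one of 0.39 ± 0.15 (adjusted p = 0.145). Without radiation replicate 3 these were 0.61 ± 0.07 and 0.56 ± 0.07, with adjusted p = 0.0019 and 0.0036. The other Icos probe sets gave 0.70 ± 0.21 in 1436598_at and 0.36 ± 0.13 in 1421931_at, both with overlap (limma adjusted p = 0.079 and 0.165). Pdcd1lg2, Cd28 and Pdcd1 had changes between 0.18 and 0.19 (adjusted p between 0.151 and 0.203). Cd276 had one of -0.14 ± 0.06 (adjusted p = 0.195). Cd86 and Icosl were at 0.01 ± 0.12 and 0.01 ± 0.07. In all, 8 of the 10 members had an unadjusted p under 0.05, as did 19.1% of all genes. The 95% interval of Cd86 ran from -0.25 to 0.26.

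Neighbouring genes and receptor partners were compared by the same within-tumor difference. With radiation, Cd274 minus Pdcd1lg2 changed by 0.29 (exact permutation p = 0.085, adjusted 0.17) and Ctla4 minus Cd28 by 0.24 (p = 0.255, adjusted 0.34). Cd80 minus Ctla4, a ligand against its restraining receptor, changed by 0.69 (exact permutation p = 0.015, adjusted 0.06). None of these passed after adjustment over the 8 tests. With 1D11, Cd274 minus Pdcd1lg2 changed by 0.31 (exact permutation p = 0.035, adjusted 0.0933), and the other differences had an adjusted p of at least 0.304. Without radiation replicate 3, 5 more of the 8 differences passed: with radiation, Cd274 minus Pdcd1lg2 was 0.40 and Ctla4 minus Cd28 was 0.43 (adjusted p = 0.032 and 0.02). Cd80 minus Ctla4 was 0.54 with radiation and 0.44 with 1D11 (adjusted p = 0.032 for each), and Ctla4 minus Cd28 was -0.29 with 1D11 (adjusted p = 0.0467). Cd80 minus Ctla4 with radiation also passed without 1D11 replicate 2 (0.76, adjusted p = 0.02), and with the mean of all probe sets it was 0.093.

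Adding 1D11 to radiation called no member, and 0 of all genes tested were called (0%). By limma on the brightest probe sets, none of the 10 members had an unadjusted p under 0.05 there, against 948 of all 18193 genes (5.21%). Cd80 had a log2 change of -0.25 ± 0.15 (adjusted p = 0.840), Cd274 one of 0.27 ± 0.18 (adjusted p = 0.848) and Cd86 one of -0.35 ± 0.17 (adjusted p = 0.840). Of the other Cd80 probe sets, 1451950_a_at was lower without overlap by -0.40 ± 0.12 (limma unadjusted p = 0.0076, adjusted 0.830). Probe set 1427717_at gave -0.35 ± 0.14, with overlap (limma unadjusted p = 0.030, adjusted 0.830), and 1454372_at 0.01 ± 0.10 (adjusted p = 0.994). Several values turned on radiation replicate 3. Without it the log2 change was 0.06 ± 0.16 for Cd274 and -0.55 ± 0.13 for Cd86 (limma adjusted p = 0.994 and 0.919). Ctla4 went from -0.23 ± 0.23 to -0.60 ± 0.10 and Icos from -0.21 ± 0.22 to -0.54 ± 0.10 (adjusted p = 0.433 and 0.761 without it). Pdcd1 was lower without overlap by -0.20 ± 0.11 (adjusted p = 0.881, 6.3% of all genes were lower without overlap). Over both radiation states, 1D11 called none of the 6 members tested, where 0.00785% of all genes tested were called. By limma, no member had an unadjusted p under 0.05 there (12% of all genes did), and Cd274 came nearest with 0.28 ± 0.13 (adjusted p = 0.405). With radiation replicate 3 left out this was 0.18 ± 0.10, while Ctla4 went from -0.18 to -0.37 (limma adjusted p = 0.545 and 0.317 without it). Cd80 was at 0.12 ± 0.10, and its other probe sets were at 0.06, -0.11 and -0.05 in the order above.

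Set against tumors that had neither treatment, tumors with both had 1 of 6 members called, Cd80, where 2.35% of all genes tested were called. Cd80 rose by 1.23 ± 0.15 (fold 2.34, limma adjusted p = 0.0078). Its other probe sets gave 0.76 ± 0.12 in 1451950_a_at, called and without overlap, and 0.22 ± 0.14 in 1427717_at, higher without overlap but not called (limma adjusted p = 0.0245 and 0.399). Probe set 1454372_at was lower without overlap, at -0.12 ± 0.10 (adjusted p = 0.587). With the mean of the 4 probe sets the change was 0.52 ± 0.09 and still called (adjusted p = 0.0169). The call of the brightest probe set ended in a fit of these 2 groups alone (adjusted p = 0.0674), in which 1 gene in all was called. Cd274 had a log2 change of 0.76 ± 0.18 (fold 1.69, adjusted p = 0.0564), with all 3 tumors above all control tumors. Without radiation replicate 3, or without control replicate 2, it was called (adjusted p = 0.0259 and 0.0334), among 424 and 219 genes called in all, against 299 with all 12 tumors. Ctla4 at 0.24 ± 0.23 and Icos at 0.40 ± 0.22 also did not overlap with control tumors but were not called (adjusted p = 0.620 and 0.311). These 4 genes were the members higher without overlap (11.2% of all genes). Icos probe set 1436598_at gave 0.73 ± 0.30, also without overlap, and 1421931_at 0.18 ± 0.18, with overlap (limma adjusted p = 0.2145 and 0.656). This comparison and those of radiation and of 1D11 share the 3 control tumors.

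By mean level of the brightest probe set, the order of the groups for Cd80 was control (5.36 ± 0.07, SD, n = 3), 1D11 (5.85 ± 0.22), 1D11_radiation (6.59 ± 0.28) and radiation (6.84 ± 0.17). No pair of neighbours in this order passed the limma test (adjusted p = 0.211, 0.0668 and 0.840). For Cd274 the order was control (6.89 ± 0.34), 1D11 (7.18 ± 0.09), radiation (7.38 ± 0.37) and 1D11_radiation (7.65 ± 0.06). Neighbours overlapped in every step, and none of the steps that were tested passed.

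The members were also set against each other over the 12 tumors, as a description, since these tumors share treatments. The highest Pearson correlation among members was that of Ctla4 and Icos (r = 0.89), which adjoin each other on chromosome 1. Pdcd1lg2 and Pdcd1 followed (0.77), then Cd80 and Pdcd1lg2 (0.75). Cd80 and Cd86 were at 0.29, and Cd276 ran from -0.525 with Cd80 to 0.21 with Cd86. Among all genes tested, those most like Cd80 were Gzmb, which codes for the cytotoxic protease granzyme B (r = 0.97), Gfer (0.96), Znrd1as (0.95), Det1 (0.95) and Itgb7, an integrin subunit of lymphocytes (0.94). For Cd274 they were Pim1 (0.95), Miip (0.94), Me2 (0.94), Ndc1 (0.93) and Map2k4 (0.93). For Ctla4 they were Icos (0.89), 1810013L24Rik (0.89), 2410017I17Rik (0.88), Trib3 (0.87) and Metap2 (0.87).

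Markers of cells that carry these ligands and receptors were compared in the same fit. Under 13C4, radiation raised 3 of 12 macrophage markers, all tested: Mrc1, a mannose receptor (log2 change 1.14 ± 0.15), Fcgr1, an IgG receptor (0.84 ± 0.13), and Itgam, an integrin of myeloid cells (0.59 ± 0.13), with limma adjusted p of 0.0089, 0.0139 and 0.0453. The list's median change was 0.34, against -0.0015 for all genes tested. The macrophage score was -0.37 to -0.09 in control tumors and 0.08 to 0.20 in radiation tumors, while the summed intensity of the 12 genes overlapped (28630 to 36424 and 33942 to 36780). Of 8 dendritic cell markers tested, 1 was called: Cd83 rose (1.03 ± 0.17, limma adjusted p = 0.0155). In all, 6 of the 8 were above 0, with a median of 0.29. The score was -0.30 to -0.10 in control tumors and 0.04 to 0.28 in radiation tumors. Cd83 marks mature dendritic cells and is also made by other activated leukocytes.

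Lymphocyte markers rose in part. Of 6 T cell markers tested, 1 was called: Cd3d, a chain of the T cell receptor complex, rose (0.69 ± 0.13, limma adjusted p = 0.0264). Only 4 of the 6 were above 0, with a median of 0.17, and over both antibodies 3 were. The T cell score was -0.09 to -0.07 in control tumors and 0.13 to 0.17 in radiation tumors, with summed intensities of 604 to 636 and 712 to 778 over 12 genes. Of 7 natural killer cell markers, 6 had a probe set, and only Klrd1 and Gzma passed the filter. Ncr1, Klrk1, Eomes and Klre1 lay under it and were not tested. Klrd1 (1.66 ± 0.28) and Gzma (1.12 ± 0.26) rose (limma adjusted p = 0.0189 and 0.0497). Fewer than these 2 were called in 10 of the 12 fits with 1 tumor left out and in 7 of 11 other alternatives. None of the 3 regulatory T cell markers tested was called. Ikzf2 was nearest, at 0.77 ± 0.19 (adjusted p = 0.0592).

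Markers of other cell types were set beside these in the same comparison. Of 8 fibroblast markers, all tested, 2 fell: Pdgfra and Pdgfrb, both receptors of platelet-derived growth factor, with log2 changes of -0.98 ± 0.14 and -2.05 ± 0.32 (limma adjusted p = 0.0114 and 0.0139). The list's median change was -0.60, with 1 of 8 above 0, and its score was 0.30 to 0.63 in control tumors and -0.65 to 0.31 in radiation tumors, overlapping through radiation replicate 3. Summed intensities were 44072 to 54422 and 30924 to 50090. Of 4 carcinoma epithelium markers tested none was called, yet all 4 were above 0, with a median of 0.22, and the scores did not overlap (-0.13 to -0.02 and 0.09 to 0.20). Their summed intensity over 6 genes was 7804 to 8881 in control tumors and 10206 to 10726 in radiation tumors. All 10 skeletal muscle genes were above 0 and none was called. The part of cell numbers in the Cd80 change was not tested. With 1 tumor left out at a time, the number called ran from 1 to 3 for macrophage, 0 to 2 for dendritic cell, 0 to 1 for T cell, 0 to 2 for natural killer cell and 0 to 3 for fibroblast markers. In a fit of control and radiation tumors alone, 6 genes in all were called, no gene of these lists among them, while Cd80 was (limma adjusted p = 0.0122).

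**Figure D4:**
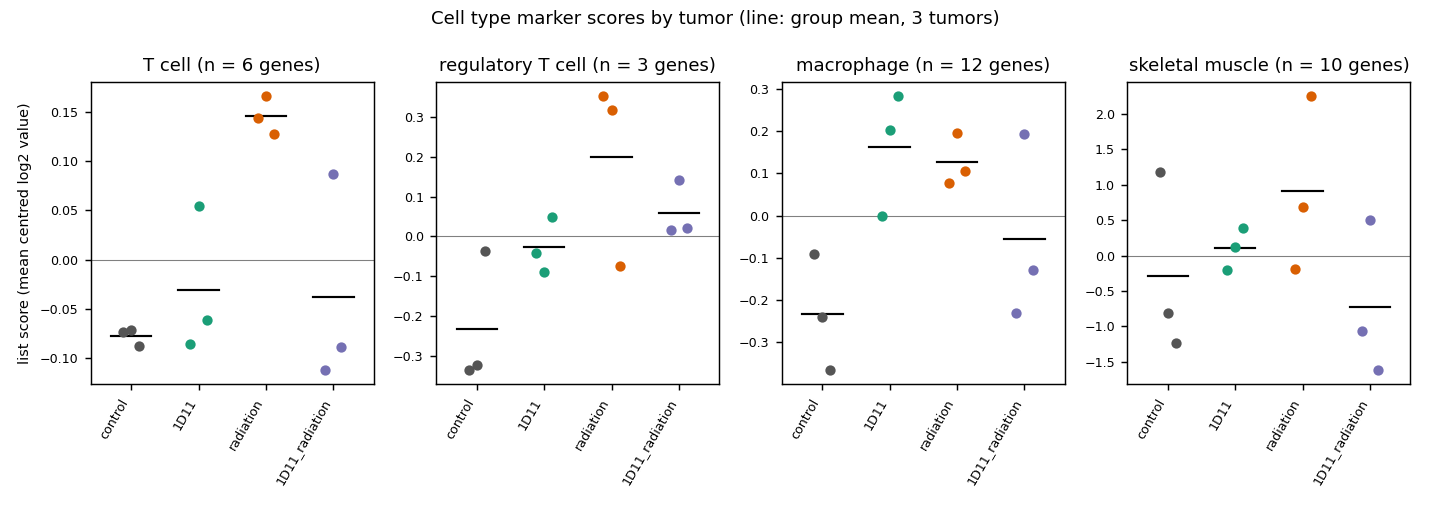
Marker list scores (vertical axis, mean log2 value of the list's tested genes after centring each gene over the 12 tumors, a separate range in each panel) in the 4 groups (horizontal axis); points are single tumors and lines are means of 3. T cell and macrophage scores do not overlap between control and radiation tumors, and the skeletal muscle panel shows control replicate 1 at 1.18 and radiation replicate 3 at 2.25.

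Under 1D11 none of these markers was called with radiation. In that comparison 11 of 12 macrophage markers had a log2 change below 0, with a median of -0.25 against -0.03 for all genes tested. Among them were Fcgr1 at -0.36 ± 0.13 and Lyz2 at -0.36 ± 0.15 (limma adjusted p = 0.230 and 0.267). The 1D11 tumors had macrophage scores of -0.0007 to 0.28 and the 1D11_radiation tumors of -0.23 to 0.19. These values stand beside those of Cd86, which was lower in 1D11_radiation than in 1D11 tumors, without overlap only in its brightest probe set. The part of macrophage markers in the Cd86 values was not tested.

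Other genes of the pathway were counted by list. Of 8 TNF-family costimulation genes tested, ligands and receptors that act beside CD28, none was called with radiation under 13C4. Tnfrsf4, the OX40 receptor, was nearest (0.31 ± 0.08, limma adjusted p = 0.0811), ahead of Tnfrsf18 (0.46 ± 0.25, adjusted p = 0.350). Of 14 other inhibitory checkpoint genes tested, 1 was called: Cd200, a membrane ligand that restrains myeloid cells, fell by 0.94 ± 0.18 (adjusted p = 0.0270). Its receptor Cd200r1 was at 0.39 ± 0.11 (adjusted p = 0.0833). The call of Cd200 ended when any of 4 tumors was left out, control replicates 2 and 3 and radiation replicates 1 and 2.

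Signalling genes below CD28 and PD-1 showed no call among 16 tested, and Nfatc2, a T cell transcription factor, was nearest (0.38 ± 0.12, limma adjusted p = 0.108). Of 15 interferon-gamma signalling genes tested, 2 rose and 1 fell. Cxcl9, a chemokine that draws T cells, rose by 2.23 ± 0.47 (adjusted p = 0.0348). Nlrc5, a driver of MHC class I genes, rose by 0.97 ± 0.21 (adjusted p = 0.0410). Ifngr1, a chain of the interferon-gamma receptor, fell by 0.58 ± 0.11 (adjusted p = 0.0264). With 1 tumor left out at a time, between 0 and 4 genes of this list were called, and no gene was called without radiation replicate 1 or without radiation replicate 2. None of 14 NF-kappaB and STAT3 genes tested was called, and Nfkbib came first by p (0.22 ± 0.09, adjusted p = 0.213).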

How the data were processed

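Expression was measured on 12 Affymetrix arrays of 1 color. The authors deposited 1 linear intensity per probe set and array, per the series value table. How they corrected, normalized and summarized the scans is not given in the sources used here. Array medians lay between 62.3 and 66.1, and log2 of the deposited intensity, with a floor of 1, was used as it stands. The tests ran in limma 3.58.1 under R 4.3.3: a model with a mean for each group was fitted to all 12 arrays, followed by eBayes. They were two-sided and were adjusted over all 12735 genes tested by Benjamini-Hochberg. On simulated data for radiation against control (12735 genes), 99% of genes changed 4-fold and 88% of those changed 2-fold were recovered. The simulated noise was drawn independently for each gene and tumor, with no tumor that stands apart. These shares therefore check the code and do not give what would be recovered in the real tumors. Differences between members were tested by exact permutation within the levels of the other factor. Members and lists were chosen with earlier results of these data known. Named genes are the members, all probe sets of Cd80 and Cd274, up to 4 list genes with the smallest p, the 5 genes most like Cd80, Cd274 and Ctla4, and adjoining genes. Probe sets of other members, genes of the marker check and genes that carry a list's call were named beside them. Same-numbered tumors did not pair: r ran from -0.31 to 0.27, and 3 of 18 pairs were over 0.1. Alternatives covered filter, normalization, probe set choice, weights, block, groups fitted and each tumor left out. Some genes of the lists are not reported here.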

Additional observations from a re-analysis of the deposited data

How the results depend on the processing

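Cd80 stayed called after radiation under every alternative that tested it, with log2 changes of 0.77 to 1.59 (adjusted p from 0.0015 to 0.0138) and of 1.39 to 1.56 with 1 tumor left out. With the lowest 50 percent of genes not tested Cd80 itself was not tested, and members called were 0 under 13C4 and 1 over both antibodies. In that setting 2 members were tested, and under 13C4 372 of 9097 genes were called. Array weights called 3 members for radiation under 13C4, 3 for radiation under 1D11, 2 for both treatments against control, and 1 in the interaction, while genes called in all went from 304 to 890, from 10 to 1491, from 299 to 923 and from 0 to 122. A fit of the 2 groups alone called 1 for radiation under 1D11, among 119 genes in all, and 0 for both treatments, with 1 gene in all. Without both tumors with the highest skeletal muscle scores (the muscle-rich pair), chosen after the data were seen, the counts were 2 for radiation under 13C4, 1 under 1D11 and 2 for both treatments, among 569, 419 and 341 genes in all. Over both antibodies the count was 1 without a filter, after quantile normalization, after median centring, with all probe sets and with the replicate block, which cost the Cd274 call. With 1 tumor left out, counts ran from 1 to 4 for radiation under 13C4, 0 to 1 under 1D11, 1 to 3 for both treatments and 1 to 3 over both antibodies. Genes called in all changed between these fits too: the fit with 4 members called, without radiation replicate 3, called 403 against 304. Not every such total is given here, so these counts alone say nothing on the members. For Cd80 minus Cd86 with radiation, the mean of probe sets gave 0.43 (adjusted p = 0.08) and the replicate block 1.10 (adjusted p = 0.125), and with 1D11 the mean of probe sets gave -0.094. The block leaves that permutation test too few relabelings for a difference to pass by itself. The replicate block changed no other call of a member. With 1 tumor left out, Cd80 minus Cd86 with 1D11 ran from -0.0064 to 0.18, Cd274 minus Pdcd1lg2 with radiation from 0.22 to 0.40, Ctla4 minus Cd28 from 0.13 to 0.43 with radiation and from -0.29 to 0.0088 with 1D11, and Cd80 minus Ctla4 from 0.54 to 0.80 with radiation and from 0.19 to 0.44 with 1D11. Signal over background is not known per array, which limits the values of the 4 members under the filter.
Among single members, signs turned only where no change was called. These were Cd28 in 1D11 against control 0.027 (quantile), 0.12 (mean of probe sets), Pdcd1lg2 in 1D11 against control -0.0079 (without the muscle-rich pair), Cd276 in 1D11_radiation against radiation -0.020 (quantile), -0.011 (weights), -0.021 (without the muscle-rich pair), Icosl in 1D11_radiation against radiation 0.013 (without the muscle-rich pair). The same held for Cd86 in 1D11_radiation against control -0.019 (quantile), -0.047 (weights), -0.0098 (without the muscle-rich pair), Cd274 in interaction 0.0038 (quantile), Cd86 in radiation over both antibodies -0.0093 (quantile), Icosl in radiation over both antibodies -0.0041 (quantile), -0.023 (mean of probe sets). The same held for Cd86 in 1D11 over both radiation states -0.010 (quantile), -0.086 (weights), -0.099 (without the muscle-rich pair), Pdcd1lg2 in 1D11 over both radiation states 0.013 (quantile), Icos in 1D11 over both radiation states -0.048 (mean of probe sets), -0.10 (weights), -0.14 (without the muscle-rich pair). With 1 tumor left out, values that changed sign were Icosl in radiation against control from -0.12 to 0.052, Pdcd1lg2 in 1D11 against control from -0.039 to 0.13, Cd276 in 1D11 against control from -0.091 to 0.0089, Cd28 in 1D11 against control from -0.11 to 0.093, Pdcd1 in 1D11 against control from -0.094 to 0.094. Further ranges were Icosl in 1D11_radiation against radiation from -0.099 to 0.013, Cd276 in 1D11_radiation against radiation from -0.065 to 0.096, Cd86 in 1D11_radiation against control from -0.054 to 0.12, Pdcd1 in 1D11_radiation against control from -0.015 to 0.17, Cd274 in interaction from -0.23 to 0.11. Further ranges were Cd276 in interaction from -0.010 to 0.15, Ctla4 in interaction from -0.46 to 0.12, Cd86 in radiation over both antibodies from -0.067 to 0.11, Icosl in radiation over both antibodies from -0.025 to 0.061, Pdcd1lg2 in 1D11 over both radiation states from -0.070 to 0.014. Further ranges were Cd276 in 1D11 over both radiation states from -0.060 to 0.020, Icos in 1D11 over both radiation states from -0.15 to 0.097, Cd86 in 1D11 over both radiation states from -0.077 to 0.10.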
